A study of Mus musculus with 12 samples.

Results

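The genes Slco2a1, Kcnt2, Bpifb4, Igfn1, Ttll7, Ccn2 and Cyb5r2 had almost no reads in mature B cells from the bone marrow of young mice and had reads in every library from old mice. They are 7 of the 27179 genes counted in bulk RNA sequencing of these cells. They were chosen by their read counts in young and old wild-type libraries. Between 0 and 4 reads were counted over the 3 young libraries together, and between 123 and 753 over the 3 old ones. Old against young wild type is therefore described here without a test, and the low counts in young cells are not a result. The apoptosis-resistant and apoptosis-sensitive groups were not used in the choice, so the comparison between them was tested. For genes other than Cyb5r2 that test says little, since they passed the filter on low counts only through their old libraries.

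All mice were on the C57BL/6 background, and the cells were sorted by high B220, with IgM and without CD93. Old wild-type mice were 98, 99 and 100 weeks of age. The apoptosis-resistant group had the genotype Bak-/- BaxD/D and the apoptosis-sensitive group the genotype Bak-/- Baxfl/fl, both at 10 weeks, so both lack Bak1. The driver of the Bax deletion was not given in the sources used here. Young wild-type mice were 9, 10 and 11 weeks of age. Each group had 3 libraries, described as biological replicates in the series design. In bulk samples fewer cells of a type and less RNA per cell cannot be told apart.

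BAK1 and BAX open the outer mitochondrial membrane in apoptosis, and cells without both cannot die by that route. Mature B cells that recirculate through the marrow are small resting lymphocytes, and in old mice they are joined by memory-like and age-associated B cells. The 7 genes form no single pathway. Slco2a1 encodes the prostaglandin transporter, which takes prostaglandins into cells for breakdown. Kcnt2 encodes a potassium channel subunit of the SLO family that is activated by intracellular sodium and chloride. Bpifb4 belongs to the BPI-fold family, named after a secreted lipid-binding defence protein. Igfn1 encodes an immunoglobulin and fibronectin type III domain protein known from skeletal muscle. Ttll7 encodes an enzyme that adds glutamate chains to tubulin. Ccn2 encodes a secreted matricellular protein, a known target of the YAP and TAZ coactivators in mesenchymal cells. Cyb5r2 encodes a reductase that passes electrons to cytochrome b5.

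Promoter sequences were looked up for the 7 genes, which were chosen for few young reads and a rise in old wild type. RefSeq (GRCm38.p6) had an entry for 6 of them. Ccn2 had no entry. The 250 bases before the listed start site are printed for a gene with 0 young reads and the most CG dinucleotides of the 6 (Slco2a1), a gene with 0 young reads and few CG dinucleotides (Bpifb4), and the gene with the most reads in apoptosis-resistant cells (Cyb5r2). They lie at chr9:103008237-103008486 on the plus strand, chr2:153940612-153940861 on the plus strand and chr7:107758033-107758282 on the minus strand. Capitals mark CG dinucleotides and matches of the motifs searched.
Slco2a1: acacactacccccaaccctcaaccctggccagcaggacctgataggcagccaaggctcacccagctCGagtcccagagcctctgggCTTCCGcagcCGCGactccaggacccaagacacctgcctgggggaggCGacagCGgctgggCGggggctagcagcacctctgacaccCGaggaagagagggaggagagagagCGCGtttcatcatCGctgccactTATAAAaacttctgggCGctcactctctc
Bpifb4: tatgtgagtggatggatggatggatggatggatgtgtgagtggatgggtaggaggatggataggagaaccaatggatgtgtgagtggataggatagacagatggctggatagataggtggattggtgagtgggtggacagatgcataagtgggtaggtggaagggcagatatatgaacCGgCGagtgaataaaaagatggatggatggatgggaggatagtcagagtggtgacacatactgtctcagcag
Cyb5r2: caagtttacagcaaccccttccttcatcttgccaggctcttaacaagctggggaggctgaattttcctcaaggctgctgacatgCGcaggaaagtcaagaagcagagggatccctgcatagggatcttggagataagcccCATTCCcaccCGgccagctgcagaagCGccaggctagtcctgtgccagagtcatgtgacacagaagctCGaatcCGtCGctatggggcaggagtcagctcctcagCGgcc

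The 6 listed promoters did not share a class of CG content. For all 6 the listed start lay inside the annotated span of the gene. The whole window did so for Igfn1, Bpifb4 and Slco2a1, while the windows of Kcnt2, Ttll7 and Cyb5r2 reached past the outer end. The Igfn1 window was 136006293 to 136006592, while the span of this minus-strand gene begins at its end, 136040925. CG content at the outer ends of Igfn1, Bpifb4 and Slco2a1 was not examined. Over 250 bases before and 50 after the start, Slco2a1 had 18 CG dinucleotides, Kcnt2 12, Ttll7 11, Cyb5r2 9, Bpifb4 3 and Igfn1 2. The median of 32841 RefSeq promoters was 7, with quartiles of 3 and 20. The motifs searched on both strands were TATAAA (the TATA box), TGANTCA (AP-1), CATTCC (TEAD), CACGTG (E-box) and CGGAAG (ETS). They occurred in 13.6%, 7.81%, 14.7%, 7.15% and 16.9% of all promoters, in that order. Slco2a1 had 1 TATAAA starting 29 bases before the start site and 1 CGGAAG on the opposite strand. Cyb5r2 had 1 CATTCC, 110 bases before the start site. No match overlapped a match of another motif. The other 4 promoters held none of these motifs in this window.

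The depth was 13474162 to 23539764 counts per library, and 3 reads over a group, the floor used for bounds, came to 0.0512 CPM in old and 0.0592 CPM in young wild type. CPM scales the reads of a gene by the TMM-adjusted total of the library. Old replicate 1 and young replicate 1, both dated 24 March with 2006 as the year in the labels, stood apart from the other 10 libraries on the first principal component (31.9% of the variance). Values with and without this pair are given where a result rests on it. The B cell identity genes Cd79a and Pax5 were abundant in all 12 libraries, with means of 1261 and 234 CPM in old and 1526 and 278 CPM in young wild-type cells, and neither was called in either comparison. Cd93, whose protein the sort selected against, had reads in all groups.

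Igfn1 (Entrez 226438; chromosome 1, 135953205 to 136040925, minus strand) was the most abundant of the 7 in old cells by CPM. It had 467, 174 and 112 reads in the 3 old wild-type libraries, in the order of replicates 1 to 3, as in all sentences that follow. The apoptosis-resistant libraries had 1, 0 and 4 reads, the apoptosis-sensitive libraries 4, 1 and 3, and the young wild-type libraries 2, 1 and 1. Every old library was thus far above the other 9, which overlapped each other. The mean was 12.6 ± 9.00 CPM in old wild type, 0.0867 ± 0.0968 in apoptosis-resistant, 0.142 ± 0.0834 in apoptosis-sensitive and 0.0910 ± 0.0645 CPM in young wild-type cells (SD, n = 3 each).

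Cyb5r2 (Entrez 320635; chromosome 7, 107748446 to 107758202, minus strand) was the gene with the most reads outside old cells. It had 129, 43 and 49 reads in old wild-type libraries, 12, 13 and 13 in apoptosis-resistant, 5, 3 and 0 in apoptosis-sensitive, and 0, 2 and 1 in young wild-type libraries. The old libraries were above all others, and the apoptosis-resistant libraries lay between them and the rest with no overlap on either side. Its mean was 3.72 ± 2.26 CPM in old wild type, 0.746 ± 0.110 in apoptosis-resistant, 0.153 ± 0.142 in apoptosis-sensitive and 0.0505 ± 0.0449 CPM in young wild-type cells. The apoptosis-sensitive and young libraries overlapped.

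Ttll7 (Entrez 70892; chromosome 3, 146852184 to 146984009, plus strand) had 3.77, 5.78 and 1.72 CPM in old wild-type libraries, from 222 reads in all. It had 1, 1 and 2 reads in apoptosis-resistant, 0, 0 and 2 in apoptosis-sensitive, and 0, 2 and 0 in young wild-type libraries. The 3 groups of young age overlapped at 0 to 2 reads. Its mean in old cells was 3.76 ± 2.03 CPM.

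Ccn2 (Entrez 14219; chromosome 10, 24595442 to 24598683, plus strand) had 13, 82 and 92 reads in old wild-type libraries, 0, 1 and 0 in apoptosis-resistant, 1, 1 and 0 in apoptosis-sensitive, and 0, 0 and 2 in young wild-type libraries. The old libraries were above all others, but replicate 1 was well below the other two. Its mean in old cells was 3.26 ± 2.30 CPM.

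Slco2a1 (Entrez 24059; chromosome 9, 103007061 to 103096002, plus strand) had 35, 91 and 32 reads in old wild-type libraries, 6, 2 and 2 in apoptosis-resistant, 0, 1 and 0 in apoptosis-sensitive, and 0 in each young wild-type library. Kcnt2 (Entrez 240776; chromosome 1, 140245657 to 140614045, plus strand) had 48, 92 and 12 reads in old wild-type libraries, 2, 2 and 9 in apoptosis-resistant, 0, 1 and 0 in apoptosis-sensitive, and 0 in each young wild-type library. For both genes the old libraries were highest, and every apoptosis-resistant library was above every apoptosis-sensitive and young one. Slco2a1 averaged 2.70 ± 1.70 CPM in old wild type, 0.210 ± 0.177 in apoptosis-resistant and 0.0196 ± 0.0339 CPM in apoptosis-sensitive cells. Kcnt2 averaged 2.57 ± 2.04 CPM in old wild type, 0.230 ± 0.174 in apoptosis-resistant and 0.0196 ± 0.0339 CPM in apoptosis-sensitive cells.

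Bpifb4 (Entrez 381399; chromosome 2, 153938217 to 153963852, plus strand) had 73, 35 and 15 reads in old wild-type libraries, 0, 0 and 4 in apoptosis-resistant, 3, 1 and 1 in apoptosis-sensitive, and 0 in each young wild-type library. The old libraries were again highest, and the Bak1-deficient groups overlapped. Its mean in old cells was 2.06 ± 1.40 CPM.

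**Figure D1:**
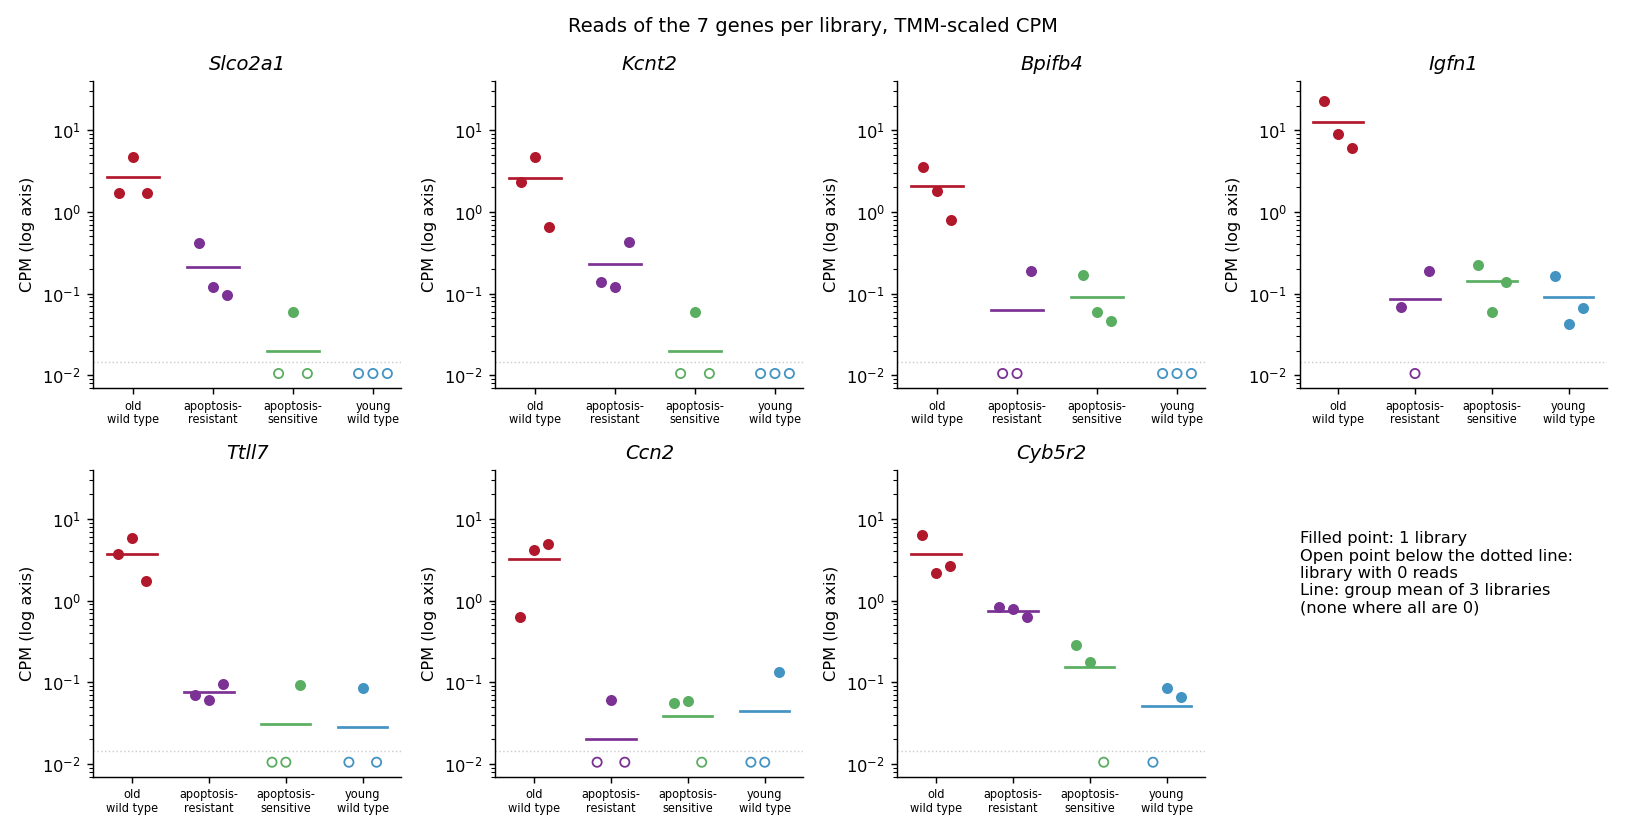
Level of each gene in every library, in TMM-scaled CPM on a log axis, with 1 panel per gene and the groups old wild type, apoptosis-resistant, apoptosis-sensitive and young wild type from left to right. Filled points are libraries, open points below the dotted line are libraries with 0 reads, and lines are means of 3 libraries. The 3 old libraries are highest in every panel, and only for Slco2a1, Kcnt2 and Cyb5r2 do the apoptosis-resistant libraries all lie above the apoptosis-sensitive ones.

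Set against one another per length, the 7 genes were all low in old cells too. RPKM, which is CPM divided by the exon length in kilobases, averaged 1.40 ± 1.002 for Igfn1, 1.34 ± 0.815 for Cyb5r2, 1.18 ± 0.830 for Ccn2, 0.829 ± 0.565 for Bpifb4, 0.507 ± 0.274 for Ttll7, 0.436 ± 0.347 for Kcnt2 and 0.379 ± 0.238 for Slco2a1. The libraries of neighbours in this order overlapped. The median of 12140 tested genes with an exon length was 9.82 RPKM in old cells, and the share of those genes below a member ran from 7.13% for Slco2a1 to 18.6% for Igfn1. A level this low in bulk RNA does not tell how many cells held the transcript.

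Old against young wild type gave lower bounds where young cells had 0 reads. Against 3 reads over the 3 young libraries, the pooled CPM in old cells was at least 45.6-fold higher for Slco2a1, at least 43.8-fold for Kcnt2 and at least 35.5-fold for Bpifb4. With reads in both groups, the ratio of pooled CPM, old over young, was 163 for Igfn1 (95% exact counting interval 63.4 to 599), 96.1 for Ttll7 (26.3 to 798), 80.9 for Ccn2 (22.1 to 673) and 63.7 for Cyb5r2 (21.5 to 311). The intervals cover counting error only. In 7 of 7 genes all old libraries were above all young ones, which the choice of genes fixed. Over all 13592 tested genes that share was 9.16%, and 2.01% of genes were called between old and young wild type. All 7 passed the filter on low counts over the 12 libraries. With the 6 Bak1-deficient libraries filtered alone only Cyb5r2 passed, so the other 6 genes entered the tests through their old libraries.

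Each collection date held 1 old and 1 young library, and on each of the 3 dates the old library was the higher one for all 7 genes. Without the 24 March pair the fitted log2 fold change was 8.88 for Slco2a1, 8.63 for Kcnt2, 7.59 for Bpifb4, 6.99 for Igfn1, 6.22 for Ccn2, 6.05 for Ttll7 and 4.85 for Cyb5r2. With it, the value was 7.16 for Igfn1, 6.10 for Ccn2, 6.41 for Ttll7 and 5.86 for Cyb5r2. Fitted values of the 3 genes with 0 young reads depend on the prior count and are no bounds.

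The Bak1-deficient groups were 10 weeks of age, like the young mice, and set beside old wild type they gave smaller folds for some genes. The ratio of pooled CPM, old wild type over apoptosis-resistant cells, was 5.16 for Cyb5r2 (95% exact counting interval 3.64 to 7.48), 10.4 for Kcnt2 (5.88 to 19.9) and 14.01 for Slco2a1 (7.42 to 29.8). It was 27.3 for Bpifb4 (10.4 to 102), 49.2 for Ttll7 (18.9 to 182), 134 for Igfn1 (57.0 to 412) and 166 for Ccn2 (29.4 to 6582). Old wild type over apoptosis-sensitive cells, the ratio was 23.6 for Bpifb4 (9.83 to 73.9), 26.5 for Cyb5r2 (13.2 to 62.1) and 90.2 for Igfn1 (45.5 to 210). It was 89.6 for Ccn2 (24.5 to 745) and 106 for Ttll7 (29.1 to 884), each against 2 apoptosis-sensitive reads. For Kcnt2 (146, 25.7 to 5790) and Slco2a1 (151, 26.8 to 6017) it rested on 1 such read. In 7 of 7 genes all old libraries were above all apoptosis-resistant ones (14.1% of all tested genes) and above all apoptosis-sensitive ones (12.9%). These comparisons share no collection date and use the old libraries of the choice, so they were not tested.

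Apoptosis-resistant cells were tested against apoptosis-sensitive ones, but for all members except Cyb5r2 on counts that these 2 groups alone would not have brought past the filter. Slco2a1 (log2 fold change 3.06 ± 1.21, apoptosis-resistant over apoptosis-sensitive), Kcnt2 (3.30 ± 1.33) and Cyb5r2 (2.28 ± 0.81) had their highest values outside old cells in the apoptosis-resistant group, but none of the 7 genes was called, and for the 6 genes other than Cyb5r2 the test says little. The adjusted p (edgeR quasi-likelihood test, Benjamini-Hochberg over 13592 genes) was 0.892 for Slco2a1, 0.928 for Kcnt2 and 0.69 for Cyb5r2. With collection date as a block, it was 0.232, 0.191 and 0.11, and with DESeq2 0.57, 0.543 and 0.213. A fit of the 6 Bak1-deficient libraries alone gave Cyb5r2 a log2 fold change of 2.30 (edgeR adjusted p = 0.44). Single libraries moved the values. Slco2a1 was at 2.21 without apoptosis-resistant replicate 1 and 4.92 without apoptosis-sensitive replicate 2. Kcnt2 was at 2.45 without apoptosis-resistant replicate 3 and 5.16 without apoptosis-sensitive replicate 2. Cyb5r2 was at 3.10 without apoptosis-sensitive replicate 1 and 1.68 without apoptosis-sensitive replicate 3. In this comparison 0.0441% of all tested genes were called by edgeR, 3.41% with the block and 0.942% by DESeq2.

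Before adjustment, Slco2a1, Kcnt2 and Cyb5r2 were under 0.05 in edgeR, 3 of the 7 genes, and so were 666 of all 13592 genes. Slco2a1 and Kcnt2 passed the filter only through their old libraries. Shares over all tested genes are therefore given as background, and are no measure of the 7 genes as a set. In the same 3 of 7 genes every apoptosis-resistant library was above every apoptosis-sensitive one, a pattern of 6.32% of all tested genes, and in 0 of 7 the order was the reverse (8.31%). On each date the apoptosis-resistant library was the higher one, with 12 against 5, 13 against 3 and 13 against 0 reads for Cyb5r2. For Slco2a1 the reads were 6 against 0, 2 against 1 and 2 against 0, and for Kcnt2 they were 2 against 0, 2 against 1 and 9 against 0. The ratio of pooled CPM, apoptosis-resistant over apoptosis-sensitive, was 5.13 for Cyb5r2 (95% exact counting interval 2.36 to 12.7), 10.8 for Slco2a1 (1.54 to 469) and 14.1 for Kcnt2 (2.11 to 597).

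The other 4 genes had few reads in both Bak1-deficient groups. The ratio, apoptosis-resistant over apoptosis-sensitive, was 0.865 for Bpifb4 (0.172 to 4.02), 0.676 for Igfn1 (0.174 to 2.34) and 2.16 for Ttll7 (0.310 to 23.9). Ccn2 had 1 read over the apoptosis-resistant and 2 over the apoptosis-sensitive libraries, and no fold is given. The edgeR adjusted p was 1 for these 4 genes, which does not show that the groups were alike. Fitted log2 values of genes this low turned on single libraries, with Ttll7 at 3.59 without apoptosis-sensitive replicate 3, and Igfn1 at -1.91 and Bpifb4 at -3.80 without apoptosis-resistant replicate 3. The median fitted log2 fold change was 0.998 over the 7 genes and -0.02 over all tested genes. The value 0.998 is that of Ttll7, from 4 against 2 reads, so it describes no shift of the 7 genes as a set.

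Beside young wild type, the apoptosis-resistant cells had 38 reads of Cyb5r2 against 3, a ratio of pooled CPM of 12.4 (3.92 to 62.6). They had 10 reads of Slco2a1 and 13 of Kcnt2 against 0, at least 3.25-fold and 4.23-fold higher. The apoptosis-sensitive cells had 8 reads of Cyb5r2 against 3 in young wild type (ratio 2.41, 0.578 to 14.1) and 1 read each of Slco2a1 and Kcnt2 against 0. Apoptosis-resistant replicate 3, at 9 of 13 reads for Kcnt2, and replicate 1, at 6 of 10 reads for Slco2a1, held most of these counts, whereas Cyb5r2 was even across the replicates. These values were not tested, since the young libraries served in the choice.

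The old libraries differed from one another in which genes were highest. Igfn1, Bpifb4 and Cyb5r2 were highest in old replicate 1, with 60.5%, 57.9% and 56.6% of their summed old CPM. Kcnt2, Slco2a1 and Ttll7 were highest in replicate 2, with 61.1%, 57.6% and 51.3%. Ccn2 had 50.6% in replicate 3 and 6.51% in replicate 1. No single old library was highest for the whole set. Summed over the 7 genes, reads were 842, 630 and 344 in old wild-type libraries, 22, 19 and 34 in apoptosis-resistant, 13, 8 and 6 in apoptosis-sensitive, and 2, 5 and 4 in young wild-type libraries.

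**Figure D2:**
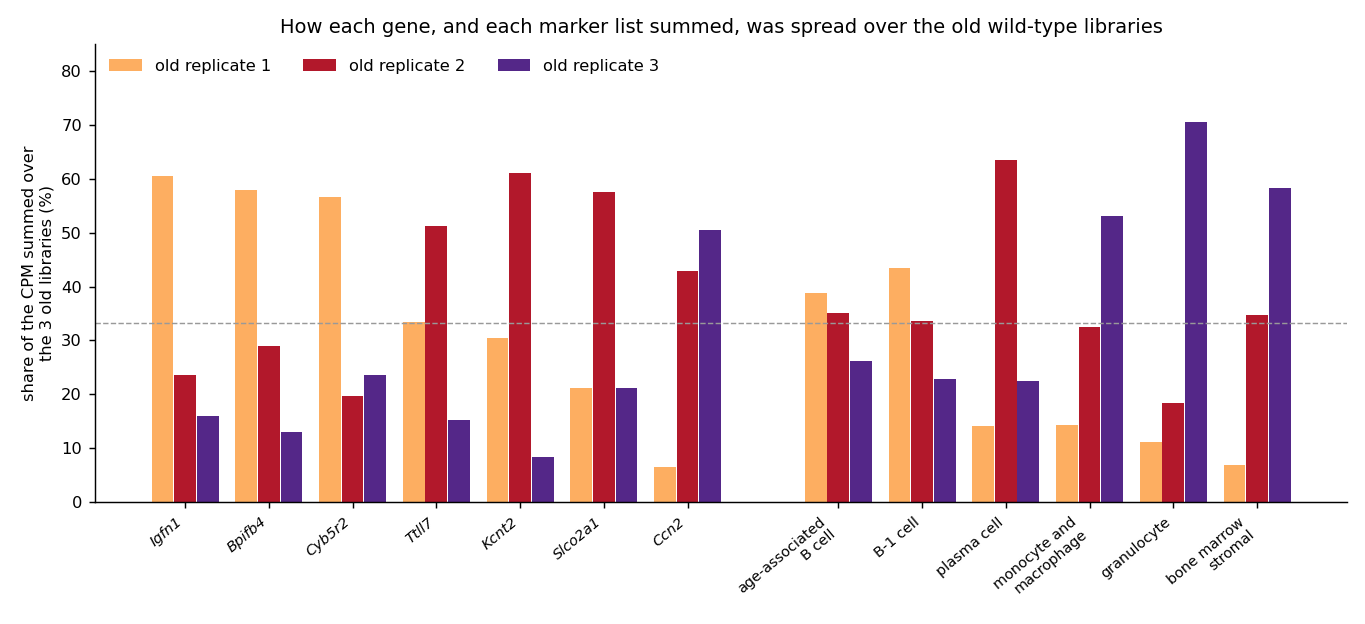
Share of each gene's CPM, and of each marker list's summed CPM, found in each of the 3 old wild-type libraries, in percent, with the dashed line at an equal split. Igfn1, Bpifb4 and Cyb5r2 are highest in replicate 1, Ttll7, Kcnt2 and Slco2a1 in replicate 2, and Ccn2 in replicate 3. The bone marrow stromal, granulocyte, and monocyte and macrophage lists are highest in replicate 3 too.

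Markers of other cells moved with the same libraries. The bone marrow stromal list of 12 genes, among them Cxcl12, Lepr and Col1a1, summed to 25.3, 126 and 211 CPM in old wild-type libraries, and to 4.27, 4.15 and 16.7 CPM in young wild-type libraries. Markers of the list at 0 reads numbered 1, 0 and 0 in old and 7, 3 and 0 in young wild-type libraries. Ccn2, also known from stromal cells, had the same order over the old libraries, with 0.636, 4.20 and 4.95 CPM. That order was not particular to the stromal list. The monocyte and macrophage, granulocyte, erythroid, NK cell, endothelial and immature B cell lists had it as well. Of 6 stromal genes tested 2 were called higher in old cells, Cxcl12 (log2 fold change 3.79 ± 0.83, adjusted p = 0.0419) and Igfbp5 (4.27 ± 0.90, adjusted p = 0.0362), and with the block 6 were. The defining markers Lum and Dcn had 29 and 63 reads in old and 2 and 5 reads in young wild-type libraries. The part of stromal RNA in the Ccn2 values was not tested.

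The age-associated B cell list, which holds Itgax and Tbx21, summed to 572, 517 and 385 CPM in old wild-type libraries and to 137, 113.02 and 163 CPM in young wild-type libraries, and 9 of 12 genes were called higher. The B-1 list summed to 1599, 1238 and 838 CPM in old and 904, 429 and 733 CPM in young wild-type libraries, with 4 of 10 called higher (6 higher and 1 lower with the block). Both list sums were highest in old replicate 1, as were Igfn1, Bpifb4 and Cyb5r2. Ahnak weighed most in the B-1 sum, at a mean of 751 CPM in old wild type. Single genes of the lists differed, with Itgax highest in old replicate 1 and Tbx21 in old replicate 2. The plasma cell list was highest in old replicate 2, at 404, 1823 and 647 CPM in old and 409, 539 and 811 CPM in young wild-type libraries, with 0 of 10 called. Slco2a1, Kcnt2 and Ttll7 were highest in the same replicate. Of the plasma cell genes Jchain weighed most in the sum, with 592, 20512 and 3336 reads in old wild-type libraries. The others of that list were also highest in old replicate 2. The monocyte and macrophage list summed to 71.7, 162 and 265 CPM in old and 39.5, 36.7 and 169 CPM in young wild-type libraries, with 1 of 13 called higher (7 with the block). Whether these cell types carried any of the 7 genes was not tested.

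In the endothelial, muscle and granulocyte lists the old and young libraries overlapped in summed level. Endothelial markers, mainly Pecam1, which B cells express, summed to 192 to 322 CPM in old and 211 to 347 CPM in young wild-type libraries. The muscle list, of interest for Igfn1, summed to 22.8 to 45.4 CPM in old and 19.5 to 52.2 CPM in young wild-type libraries. Granulocyte markers summed to 115 to 722 CPM in old and 27.3 to 794 CPM in young wild-type libraries. None of these 3 lists had a gene called between old and young wild type by edgeR, and with the block 1 granulocyte gene was called, Retnlg (adjusted p = 0.00263), higher in old wild type. Of T cell markers 3 of 11 were called higher in old wild type (6 with the block), of NK cell markers 2 of 6 (6 with the block) and of dendritic cell markers 2 of 7 (3 with the block). Of immature B cell markers 2 of 8 were called lower (6 with the block). Between the apoptosis groups none of the 15 marker lists had a call without the block. With it, Cd80, Fas, Tcf7 and Csf1r were called higher and Cd93, Fcrl5, Retnlg and Ly6d lower in apoptosis-resistant cells.

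Genes related to the 7 by family or pathway were mostly not called. Of 125 such genes, 69 were tested, 1 was called higher in old wild type and 0 lower (11 higher and 5 lower with the block). Over all tested genes 1.7% were called higher and 0.309% lower, and with the block 14.9% were called, 7.89% higher and 7.03% lower. Between apoptosis-resistant and apoptosis-sensitive cells 0 of 69 were called by edgeR, and 2 with the block, Kcna3 and Pltp, both higher (1.43% of all tested genes). These lists were drawn up with earlier results of these data known.

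The one called relative was Ttll9, another tubulin tyrosine ligase-like gene. It had 44, 40 and 26 reads in old and 4, 10 and 2 reads in young wild-type libraries. Its log2 fold change was 2.60 ± 0.57 (adjusted p = 0.0401), but 0 family genes were called when any wild-type library other than young replicate 3, or the 24 March pair, was left out. It was the sole call among 9 tested ligase-like genes without the block, with which Ttll3 and Ttll4 were called lower (adjusted p = 0.015 and 0.0066), and 0 of 6 tubulin deglutamylases and detyrosinases, which remove such modifications, were called.

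Around Slco2a1, 0 of 5 tested SLCO transporters and 0 of 11 tested genes of prostaglandin synthesis, breakdown and reception were called. Ptger2, a receptor of prostaglandin E, had 36, 11 and 19 reads in old and 0, 1 and 6 reads in young wild-type libraries (log2 fold change 2.90 ± 0.87, adjusted p = 0.14, and 0.036 with the block). Slco4a1 had 147, 102 and 96 reads in old and 266, 190 and 144 reads in young wild-type libraries (-1.16 ± 0.34, adjusted p = 0.133, and 0.00698 with the block). Hpgds, of the prostaglandin list, had 751 reads in old and 292 in young wild-type libraries (1.11 ± 0.31, adjusted p = 0.108, and 0.0111 with the block). With the block 3 genes of that list were called higher and 0 lower, namely Ptger2, Hpgds and Abcc4 (adjusted p = 0.0254). Hpgd, which encodes the enzyme that starts prostaglandin breakdown, had 129 reads in old and 67 in young wild-type libraries (0.71 ± 0.77, adjusted p = 0.886). The inducible cyclooxygenase gene Ptgs2 had 4 reads in old and 2 in young wild-type libraries.

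Around Kcnt2, 0 of 7 tested channels were called. The closest relative, Kcnt1, had 9 reads in old and 0 in young wild-type libraries and was not tested. Kcnn4, the calcium-activated potassium channel of lymphocytes, averaged 36.5 ± 4.37 CPM in old and 20.3 ± 2.49 CPM in young wild-type cells (log2 fold change 0.85 ± 0.21, adjusted p = 0.0671, and 0.00805 with the block). Kcna3, their voltage-gated potassium channel, averaged 53.1 ± 18.4 CPM in old and 73.8 ± 20.04 CPM in young wild-type cells, and the libraries overlapped (-0.47 ± 0.50, adjusted p = 0.882, and 0.0236 with the block, where it was called lower).

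Of 14 listed BPI-fold genes beside Bpifb4 only 2 were tested and 0 called. The list did not hold Bpifa6, a neighbour of Bpifb4 described below, which had reads in old libraries only. Pltp, the phospholipid transfer protein, averaged 40.1 ± 14.5 CPM in old and 22.9 ± 8.78 CPM in young wild-type cells (log2 fold change 0.80 ± 0.31, adjusted p = 0.298, and 5.4e-04 with the block). Around Igfn1, 0 of 7 tested sarcomere-associated immunoglobulin and fibronectin domain genes were called. Speg had 13, 12 and 20 reads in old and 0, 1 and 1 reads in young wild-type libraries (4.09 ± 0.93, adjusted p = 0.0591, and 0.0229 with the block). Ttn, which encodes the giant sarcomere protein titin, averaged 3.69 ± 1.62 CPM in old and 1.96 ± 0.756 CPM in young wild-type cells (0.92 ± 0.45, adjusted p = 0.491).

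Of the 5 other CCN genes, Ccn5 was the one beside Ccn2 with many reads in old cells. It had 13, 27 and 83 reads in old and 2, 1 and 2 reads in young wild-type libraries, lowest in old replicate 1 as Ccn2 was (log2 fold change 4.29 ± 1.12, adjusted p = 0.0815, and 0.0067 with the block). Ccn1, which is regulated much like Ccn2 in mesenchymal cells, had 7 reads in old and 5 in young wild-type libraries. Of 12 tested YAP and TAZ pathway genes 0 were called by edgeR. Axl, a receptor tyrosine kinase and YAP target, had 103, 428 and 517 reads in old and 13, 110 and 171 reads in young wild-type libraries (1.68 ± 0.69, adjusted p = 0.354, and 6.6e-04 with the block). Ankrd1, another classical YAP target, had 0 reads in both groups. Of the same list and also not tested, Amotl1 and Amotl2 had 41 and 51 reads in old and 4 and 7 in young wild-type libraries. Ajuba and Tead4 went the other way, with 2 and 0 reads in old and 6 and 1 in young wild-type libraries. With the block 2 genes of this list were called higher and 1 lower. Of 8 other cytochrome b5 and reductase genes 0 were called with or without the block.

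**Figure D3:**
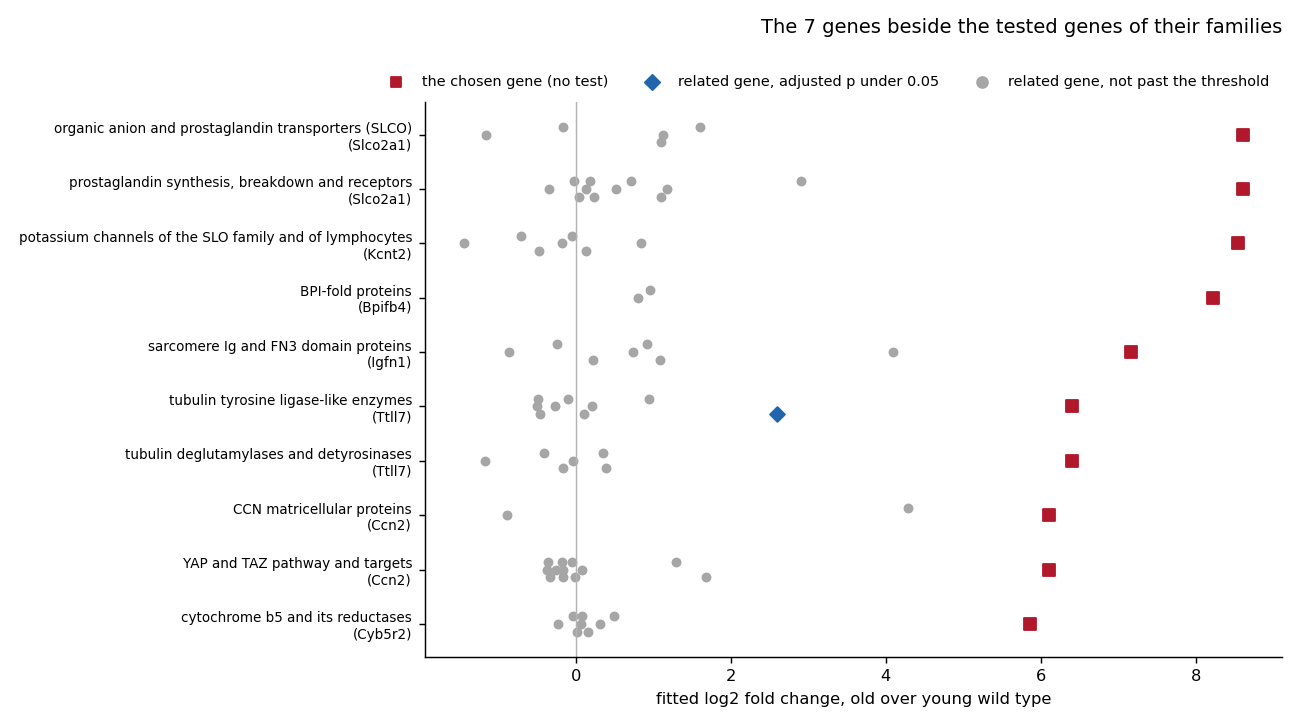
Fitted log2 fold change of old over young wild type for the 7 chosen genes (red squares, no test) and for the 69 tested relatives, by list. Ttll9 at 2.60 is the only relative past an adjusted p of 0.05 (blue diamond), and the values of Slco2a1, Kcnt2 and Bpifb4, with 0 young reads, depend on the prior count.

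Genes next to the members on their chromosomes were examined as well. Of 14 neighbours 7 were tested and 3 were called higher in old wild type (5 with the block), of which Cacna1s and Ryk are described. Cacna1s, a calcium channel gene of skeletal muscle, lies 11881 bases from Igfn1 and had 255, 244 and 158 reads in old and 21, 40 and 46 reads in young wild-type libraries (log2 fold change 2.37 ± 0.48, adjusted p = 0.03). Ryk, a receptor for Wnt ligands, lies 98754 bases from Slco2a1 and had 81, 214 and 130 reads in old and 24, 22 and 29 reads in young wild-type libraries (2.20 ± 0.50, adjusted p = 0.048). Calls among neighbours numbered 0 without old replicate 2, young replicate 1 or young replicate 2, and 1 without old replicate 3.

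Bpifa6, 11093 bases from Bpifb4, was not tested. It had 24, 11 and 4 reads in old wild-type libraries, the same order as Bpifb4, and 0 reads in each of the other 9 libraries. On the other side of Bpifb4, Bpifb3 had 1 read in all. Rab6b, on the other side of Slco2a1, had 776 reads in old and 821 in young wild-type libraries (log2 fold change -0.22 ± 0.34, adjusted p = 0.938), and Prkacb, beside Ttll7, had 10803 reads in old and 9053 in young wild-type libraries (0.14 ± 0.32, adjusted p = 0.965). Of the remaining neighbours, Adgrl2 and Enpp1 were called with the block alone (adjusted p = 0.0276 and 0.0332), and Gm4845, Pkp1, Moxd1, Olfml1 and Ovch2 had 0 or 1 read in all.

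For 2 members the reads of an overlapping gene on the opposite strand bear on the count, because the strand setting was not given in the sources used here. Ppfibp2 overlaps the end of Cyb5r2 and had 1896 reads in old and 972 in young wild-type libraries (log2 fold change 0.73 ± 0.16, adjusted p = 0.0432). In young cells those 972 reads came with 3 reads of Cyb5r2. Tmem9 lies within the annotated span of Igfn1 and had 682 reads in old and 635 in young wild-type libraries (0.03 ± 0.41, adjusted p = 0.998).

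The pattern that chose the members was counted over the whole table. With at most 3 reads over the 3 young libraries and a mean of at least 1 CPM in old ones, 55 genes were found, among them 6 of the 7, while Igfn1 had 4 young reads and lay just outside. With old and young exchanged 1 gene was found, and between the Bak1-deficient groups 2 in each direction. By old mean the first 10 were Foxp2 (4.63 CPM), Hamp2 (4.10), Ttll7 (3.76), Cyb5r2 (3.72), Rab7b (3.67), Ramp3 (3.26), Ccn2 (3.26), Slco2a1 (2.70), Kcnt2 (2.57) and Slc6a12 (2.46). Of the 55, 53 had a read in every old library, but 3 had over 90% of their old CPM in 1 library. One of these 3 was Hamp2, a hepcidin gene, with 12.2, 0 and 0.0538 CPM in the old libraries. The transcription factor gene Foxp2 had 10.8, 2.87 and 0.269 CPM, with 77.4% in replicate 1. The count was 91 without young replicate 2 and 175 without young replicate 3. Both held all 55, which was fixed beforehand, since the limit of 3 reads was kept over fewer young libraries. The genes were highest in replicate 1 for 23 genes, in replicate 2 for 17 and in replicate 3 for 15.

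**Figure D4:**
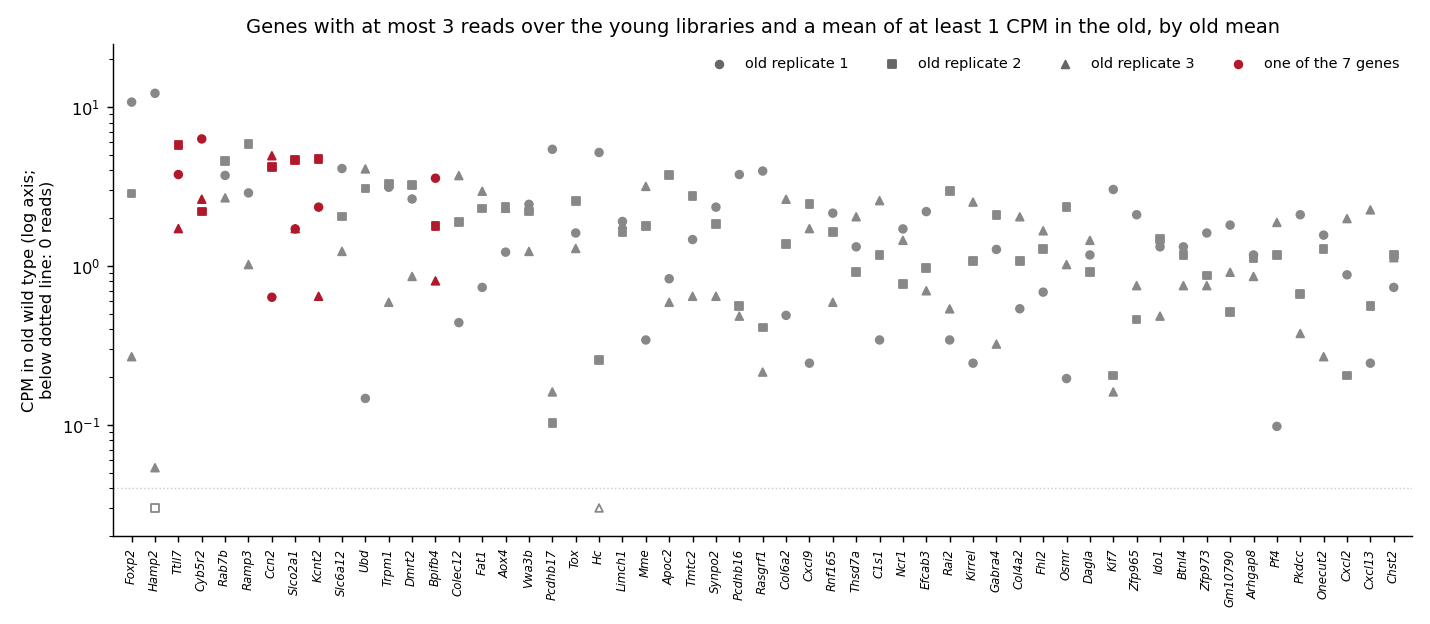
CPM of the 55 genes with at most 3 young reads in each of the 3 old wild-type libraries (log axis, open symbols at 0 reads), ordered by old mean, with the members in red. The members stand among the 14 genes of highest old mean, and Hamp2 and Foxp2 show the widest spread between old libraries of the first 10.

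Of these 55 genes 26 also had at most 3 reads over the apoptosis-resistant libraries and 28 over the apoptosis-sensitive ones. Among the members Ccn2, with 1 read, was at or under 3 reads in apoptosis-resistant cells, and Slco2a1, Kcnt2, Ttll7 and Ccn2, with 1, 1, 2 and 2 reads, were so in apoptosis-sensitive cells. Cyb5r2, with 38 reads, was the member farthest above that limit in apoptosis-resistant cells.

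The genes most like each member over the 12 libraries were found by Pearson correlation of log2 CPM (prior count 2) among 12097 genes. All of these correlations share the old libraries, which the choice made high, and they are given as descriptions. Among the members r ran from 0.709 (Ccn2 with Cyb5r2) to 0.973 (Bpifb4 with Igfn1). Slco2a1 was most like Ndnf (0.959), Mb21d2 (0.95) and Sox5 (0.938), and Kcnt2 most like Snhg18 (0.978), Dmrt2 (0.97) and Clip2 (0.966). Bpifb4 was most like Btnl4 (0.973), Plcd3 (0.972) and Dmd (0.971), and Igfn1 most like Lilrb4a (0.971), Cd300lf (0.971) and Zbtb32 (0.97). Ttll7 was most like Rab7b (0.97), Zcchc14 (0.964) and Tmem106a (0.96), Ccn2 most like C4b (0.973), Ctse (0.971) and Mmp13 (0.971), and Cyb5r2 most like Cep290 (0.974), Dll1 (0.944) and Igdcc4 (0.942).

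These nearest genes differed in level as well as in identity. Lilrb4a and Cd300lf, inhibitory receptors best known from myeloid cells, averaged 65.2 and 43.5 CPM in old cells, and Zbtb32, a repressor known from memory and age-associated B cells, averaged 73.7 CPM, all above Igfn1 itself. Mmp13, a collagenase, averaged 3.22 CPM in old and had 0 reads in apoptosis-resistant cells. With the mean profile of the 7 genes, r was highest for Fzd6 (0.975), Limch1 (0.974), Mpeg1 (0.973), P2ry12 (0.972), Afdn (0.967), Ndnf (0.967), Ercc6l2 (0.966), Gbp6 (0.963), Tbc1d9 (0.96) and Rarg (0.96). Fzd6, which encodes a Wnt receptor, averaged 15.1 CPM in old wild type, 1.26 in apoptosis-resistant, 1.28 in apoptosis-sensitive and 1.10 CPM in young wild-type cells.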

How the data were processed

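The deposited table gives raw read counts of 12 libraries. Subread, featureCounts and the build mm10 are named per the submitters' processing notes, while versions, annotation, strand setting and filters are not given in the sources used here. Genes carried Entrez numbers, and RefSeq (GRCm38.p6) gave 25275 of 27179 a symbol. Members were the rows of the 7 named symbols. Members and gene lists were chosen with earlier results of these data known.

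Counts were TMM-scaled, filtered by filterByExpr (minimum 10 reads, 13592 genes) and fitted by group over all 12 libraries with edgeR 4.0.16 under R 4.3.3 (robust quasi-likelihood, 8 residual degrees of freedom, Benjamini-Hochberg threshold 0.05), after being tested on simulated data. Alternatives were DESeq2 1.42.0, no filter, a replicate block, 6-library fits and libraries left out. The p-values measure the spread between the labelled replicates. In the main fit that spread was estimated over all 12 libraries, not over the compared groups alone. For the members it therefore includes the spread of their old libraries. Replicate numbers pair by shared collection date in the labels. Same-numbered libraries deviated together, with r of 0.745, 0.512 and 0.555 for wild type and 0.284, 0.325 and 0.487 for Bak1-deficient cells. RPKM used GENCODE M21 exon lengths. Ratios have 95% exact binomial counting intervals, and bounds a floor of 3 reads over a group.

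All members were named, with the 10 silent genes of highest old mean and up to 4 genes for most lists. Chromosomal neighbours of the members were named too. So were the 3 genes most correlated with each member and 10 with their mean, without immunoglobulin segments and predicted genes. Some named relatives with few reads were chosen after their values were seen. The table had 0 unused columns. Some genes are not reported here.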

Additional observations from a re-analysis of the deposited data

How the results depend on the processing

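With collection date as a replicate block, genes called between apoptosis-resistant and apoptosis-sensitive cells numbered 463 (6 without the block) and between old and young wild type 2028 (273 without). Related genes called numbered 16 (against 1) between old and young wild type and 2 (against 0) between the apoptosis groups, and neighbours 5 (against 3). The block changed no call of a member. DESeq2 called 128 genes between the apoptosis groups, 700 genes and 7 related genes between old and young wild type. Without the filter on low counts 11 genes were called between the apoptosis groups. A fit of the 6 wild-type libraries alone called 1 gene, 0 related genes and 0 neighbours. With each library left out in turn, calls ranged from 0 to 5 between the apoptosis groups and from 75 (without young replicate 2) to 238 between old and young wild type, with 0 to 1 related genes and 0 to 2 neighbours. The lowest counts between the apoptosis groups came without apoptosis-resistant replicate 3 or apoptosis-sensitive replicate 1. Without the 24 March pair 0 related genes were called, and Cyb5r2 was the one member whose old over young value moved by more than its spread, to 4.85. Genes silent in young cells numbered 184 at up to 10 reads and 169 at a mean of 0.5 CPM. They numbered 54 to 175 with a library left out, and without a young library the number could only stay or rise. Genes silent in old cells numbered 3, 5 and 1 to 3 under the same changes, and 3 without the 24 March pair. Ttll7 reached 9.06 without young replicate 2 and Ccn2 8.90 without young replicate 3, when no young read was left. Bpifb4 ranged from -3.80 (without apoptosis-resistant replicate 3) to 0.44 and changed sign between the apoptosis groups without apoptosis-resistant replicate 1 (0.18), apoptosis-resistant replicate 2 (0.23) or apoptosis-sensitive replicate 1 (0.44), each with an edgeR adjusted p of 1. The cause of these shifts was not tested. Of the other member values under these settings, 81 between old and young wild type (no test) moved by less than their spread. Between the apoptosis groups 68 kept their direction and did not pass the threshold, though their size moved with a library left out. Slco2a1 then ranged from 2.21 to 4.92, Kcnt2 from 2.45 to 5.16 and Cyb5r2 from 1.68 to 3.10. Ttll7 ranged from 0.54 to 3.59, Igfn1 from -1.91 to -0.04 and Ccn2 from -2.65 to -0.14. Most members had 0 to 5 reads per library outside old cells, and the size of difference that could be called at this depth was not measured.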
